A study of Mus musculus with 2 samples.

Results

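The genes described here are the small noncoding RNAs that could be counted in nuclear RNA of lipid A-treated mouse macrophages: small nuclear RNAs (snRNAs), small nucleolar RNAs (snoRNAs), small Cajal body RNAs (scaRNAs), the RNA subunits of ribozymes, and a mixed class that the annotation calls misc_RNA. A gene was chosen by its annotated transcript type and by a read level, an expected count of 10 or more in each of the 2 libraries, and Rn7sk was left out. Of 55536 annotated genes, 5728 had only transcripts of these types, and 76 were chosen, namely 30 snRNA, 26 snoRNA, 12 misc_RNA, 6 scaRNA and 2 ribozyme genes. None of the 2202 microRNA genes, with a median annotated length of 89 bases, was among them, nor was the single scRNA gene. Since counts chose the genes, their counts are given as a description and were not tested.

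Macrophages grown from bone marrow of C57BL/6J mice had been exposed to 100 ng/ml lipid A, the endotoxin component sensed by Toll-like receptor 4, for 12 h, washed and rested for 12 h, and given 100 ng/ml again for 50 min. Their nuclear RNA, from a fraction the labels also call nucleoplasmic, was depleted of ribosomal RNA and sequenced in 2 libraries of 1 group. Replicate 2 was made from 1 µg and replicate 1 from 500 ng of RNA, both under one donor entry, so that replicate and RNA input cannot be told apart and the spread between the libraries may be technical. No untreated or whole-cell library was analysed here, and with 1 library a side no test was possible. The gene-level tables held 22772087 counts in replicate 2 and 20612114 in replicate 1. The 8 macrophage markers averaged 26.3 to 1010 TPM (length-normalized transcript abundance, scaled to 1000000 per library), whereas the 17 markers of B, T and natural killer cells, neutrophils, fibroblasts and erythroid cells reached at most 0.455 TPM. In such bulk RNA, fewer cells that hold an RNA and less of it per cell cannot be told apart.

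Most small noncoding RNAs work inside protein complexes. The spliceosomal U snRNAs pair with splice sites and branch points of pre-mRNA. Box C/D and box H/ACA snoRNAs guide 2′-O-methylation and pseudouridylation of ribosomal RNA in the nucleolus, and scaRNAs do so for U snRNAs in Cajal bodies. RNase P and RNase MRP, whose RNAs are Rpph1 and Rmrp, cut precursors of transfer and ribosomal RNA, and 7SL RNA (Rn7s1, Rn7s2) is the scaffold of the signal recognition particle. Many snoRNAs and scaRNAs are processed from introns of host genes, whereas U snRNAs, Rpph1, Rmrp and 7SL have promoters of their own.

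The sequences that carry the results below are the U1, U2 and U12 snRNAs with a further snRNA, the 3 snoRNAs that differed most between the libraries, a U3 copy, and the 2 scaRNAs of one host gene. They are read from GENCODE M21 transcripts (mm10) 5′ to 3′ in DNA letters. Capitals mark letters that a script found on the transcript strand: ACTTACCTG in U1, the stretch that pairs with 5′ splice sites; GTAGTA in U2 and GTAAGGAA in U12, the branch site pairing stretches; ATTTNTG, where the Sm protein ring binds U snRNAs; TGATGA in the first 25 bases and CTGA in the last 12 bases, the C and D boxes of box C/D RNAs; and ACA exactly 3 bases from the 3′ end, the ACA box of H/ACA RNAs.
Rnu1a1: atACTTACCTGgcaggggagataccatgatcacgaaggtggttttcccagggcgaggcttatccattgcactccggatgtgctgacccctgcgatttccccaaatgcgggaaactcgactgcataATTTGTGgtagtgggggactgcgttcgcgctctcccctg
Rnu2-10: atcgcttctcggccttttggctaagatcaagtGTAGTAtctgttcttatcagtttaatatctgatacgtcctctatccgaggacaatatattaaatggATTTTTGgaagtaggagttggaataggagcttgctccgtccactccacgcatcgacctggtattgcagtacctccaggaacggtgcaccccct
Rnu12: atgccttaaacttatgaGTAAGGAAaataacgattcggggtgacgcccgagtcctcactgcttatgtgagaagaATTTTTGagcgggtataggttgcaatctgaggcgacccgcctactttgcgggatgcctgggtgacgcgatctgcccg
Gm24265: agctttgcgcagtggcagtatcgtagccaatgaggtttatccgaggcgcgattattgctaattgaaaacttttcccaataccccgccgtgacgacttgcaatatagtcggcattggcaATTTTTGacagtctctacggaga
Snora73a: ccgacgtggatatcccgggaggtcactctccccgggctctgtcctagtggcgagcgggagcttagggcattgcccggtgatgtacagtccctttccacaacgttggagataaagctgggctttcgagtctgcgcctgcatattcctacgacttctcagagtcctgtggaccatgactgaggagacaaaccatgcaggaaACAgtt
Snora73b: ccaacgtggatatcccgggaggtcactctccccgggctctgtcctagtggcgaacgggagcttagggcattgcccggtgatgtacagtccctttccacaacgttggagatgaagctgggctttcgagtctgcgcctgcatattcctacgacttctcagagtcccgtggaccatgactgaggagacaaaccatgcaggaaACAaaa
Snord22: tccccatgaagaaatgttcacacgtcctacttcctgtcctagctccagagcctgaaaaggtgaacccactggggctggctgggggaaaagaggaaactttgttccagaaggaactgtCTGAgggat
Rnu3b1: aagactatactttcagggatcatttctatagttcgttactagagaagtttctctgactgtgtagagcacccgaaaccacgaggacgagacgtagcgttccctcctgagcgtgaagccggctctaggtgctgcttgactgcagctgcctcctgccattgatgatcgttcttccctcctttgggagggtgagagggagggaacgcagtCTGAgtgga
Gm25395: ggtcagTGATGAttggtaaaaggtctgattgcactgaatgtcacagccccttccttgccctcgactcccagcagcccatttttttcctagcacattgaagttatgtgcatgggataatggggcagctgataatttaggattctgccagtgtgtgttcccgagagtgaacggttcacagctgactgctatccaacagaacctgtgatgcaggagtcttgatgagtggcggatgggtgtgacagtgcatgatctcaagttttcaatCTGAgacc
Scarna6: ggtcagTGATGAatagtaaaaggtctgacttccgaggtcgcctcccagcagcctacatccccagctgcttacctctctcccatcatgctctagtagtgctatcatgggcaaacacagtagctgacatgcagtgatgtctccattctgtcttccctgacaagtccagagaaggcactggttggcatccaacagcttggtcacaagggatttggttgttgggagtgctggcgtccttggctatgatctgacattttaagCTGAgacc

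Rnu1a1 lies at chr11:87422867-87423030, plus strand, and Rnu2-10 at chr11:101658238-101658428, plus strand. Rnu12 lies at chr15:83149644-83149794, plus strand, and Gm24265 at chr5:115489459-115489599, plus strand. Snora73a (chr4:132352775-132352979, minus strand) and Snora73b (chr4:132352322-132352526, minus strand) are neighbours in Snhg3 and Rcc1. Snord22 (chr19:8725866-8725991, plus strand) lies in Snhg1 and Rnu3b1 (chr11:87443237-87443451, plus strand) in Tex14. Gm25395 (chr1:87776938-87777209, plus strand) and Scarna6 (chr1:87784556-87784820, plus strand) lie in introns of Atg16l1. The ATTTNTG letters were present in 30 of 30 snRNA genes chosen and in 119 of 245 annotated snRNA genes of 141 to 191 bases (48.6%). ACTTACCTG stood in 16 of the 30, against 50 of the 245 (20.4%), GTAGTA in 11, against 35 (14.3%), and GTAAGGAA in 1, against 7 (2.86%). Of the 26 snoRNA genes, 13 ended with CTGA letters, against 80 of 815 annotated snoRNA genes of 126 to 325 bases (9.82%). The ACA letters stood in 9 snoRNA genes, against 214 of 815 (26.3%), and 4 snoRNA genes had neither end. TGATGA stood near the start of 7 snoRNA genes, against 11 of the 815 (1.35%). Of the 6 scaRNA genes, 4 had the CTGA letters, against 5 of 9 annotated scaRNA genes of 193 to 414 bases (55.6%), and 2 the ACA letters, against 4 of the 9 (44.4%). The annotated genes set beside them include the chosen genes themselves. All 30 snRNA genes have near-identical copies, so these shares are not counts over independent genes. A match describes letters and is not a mapped binding site.

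The 76 genes held 1182566 counts in replicate 2 and 867572 in replicate 1, that is 5.19% and 4.21% of all gene-level counts (4.70% ± 0.696, SD, n = 2). The ribozyme RNAs made up 54.8% ± 15.0 of these reads and misc_RNA genes 35.0% ± 14.3 (SD, n = 2). snRNAs held 4.94% ± 1.37, scaRNAs 4.23% ± 1.11 and snoRNAs 0.988% ± 0.415. The order of the leading classes differed between the libraries: misc_RNA genes held 45.1% and ribozymes 44.2% of the members' reads in replicate 2, against 24.9% and 65.5% in replicate 1. In TPM, which divides by an effective length that is short for these RNAs, the 76 genes took 42.4% of the total in replicate 2 and 38.3% in replicate 1.

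**Figure D1:**
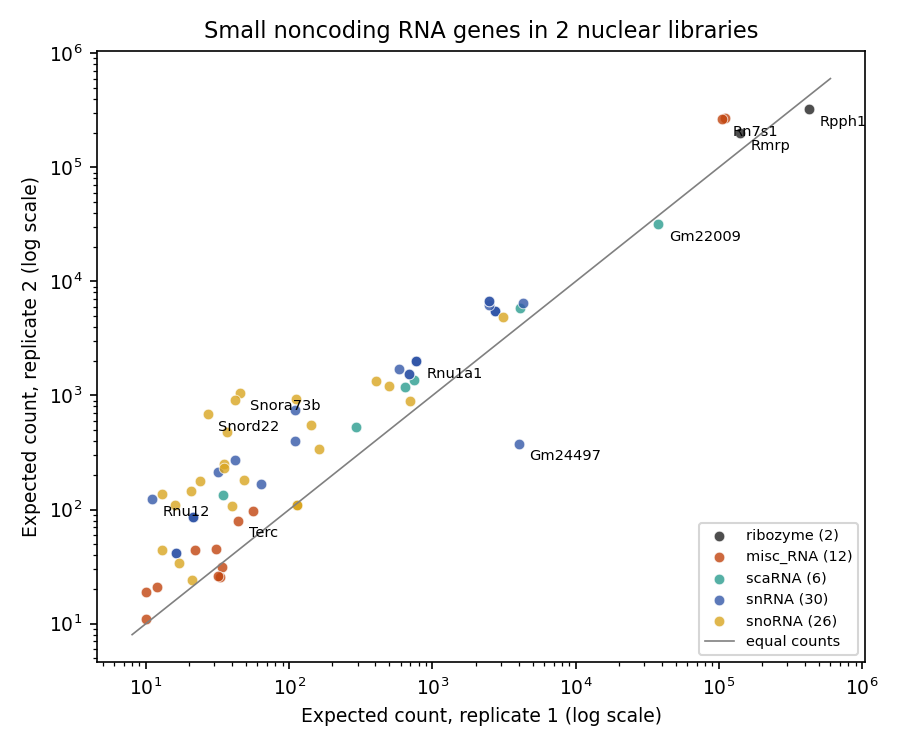
Expected count of each of the 76 genes in replicate 2 (vertical axis) against replicate 1 (horizontal axis), both on log scales, coloured by annotated type, with a line at equal counts. 66 genes lie above the line, and Rpph1, Gm22009 and the U2 copy Gm24497 are among the 10 below it.

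Scaled for library size, 45 of 76 genes were at least 2-fold higher and 1 was at least 2-fold lower in replicate 2 than in replicate 1, and the median log2 ratio was 1.27. Over all 13817 genes that reached 10 counts in each library, 3.72% were 2-fold or more higher and 1.54% were 2-fold or more lower, with a median log2 ratio of 0.01. By type, 24 of 30 snRNA genes, 18 of 26 snoRNA genes, 2 of 12 misc_RNA genes, 1 of 6 scaRNA genes and 0 of 2 ribozyme genes were 2-fold or more higher in replicate 2. Their median log2 ratios were 1.32, 1.77, 0.73, 0.81 and 0.00. All 30 snRNA genes have near-identical annotated copies, so they are not 30 separate observations. Summed over copies, the log2 ratio was 0.79 for the 11 U2 genes and 1.30 for the 16 U1 genes. It was 2.70 for Gm24265 with Gm24407 and 3.37 for Rnu12. Across the 76 genes, levels in the libraries had a Spearman correlation of 0.893, a description over genes of which some share reads.

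The RNAs of the 2 ribozymes were among the most abundant. Rpph1, the catalytic RNA of RNase P (319 bases, chromosome 14), had 323627 counts (70563 TPM) in replicate 2 and 427578 counts (121891 TPM) in replicate 1. It was one of the few members lower in replicate 2, by a log2 ratio of -0.45 (95% exact binomial interval -0.46 to -0.45, counting error only). Rmrp, the RNA of RNase MRP (271 bases, chromosome 4), had 199437 counts in replicate 2 and 140264 in replicate 1, a log2 ratio of 0.46. Per length the libraries were close, at 64703 TPM in replicate 2 and 65875 TPM in replicate 1. The annotation holds another entry named Rmrp, a 281-base lincRNA on the same strand and stretch, to which 94662 reads were assigned in replicate 2 and 11823 in replicate 1. Both entries together had 294099 counts in replicate 2 and 152087 in replicate 1, a log2 ratio of 0.90, so that the value for Rmrp depends on how shared reads were divided.

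7SL RNA stood at the same scale. Rn7s2 had 269283 counts in replicate 2 and 110360 in replicate 1, and Rn7s1 had 264044 in replicate 2 and 105069 in replicate 1. Both genes are 300 bases long, identical in sequence and on chromosome 12, so their reads were divided by estimate. Their sum was 533327 counts in replicate 2 and 215428 in replicate 1, 2.39-fold higher in replicate 2. By TPM, Rn7s2 had 67658 in replicate 2 and 37528 in replicate 1, and both 7SL genes together had 134000 TPM in replicate 2 and 73257 in replicate 1. Per length, 7SL as a whole was thus above Rpph1 in replicate 2 and below it in replicate 1. A relative, Rn7s6, 85.0% identical to Rn7s1 over its length, had 25 counts in replicate 2 and 33 in replicate 1.

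The other misc_RNA genes were low. Terc, the template RNA of telomerase (423 bases, the longest member), had 80 counts (9.96 TPM) in replicate 2 and 44 counts (6.44 TPM) in replicate 1. Gm25265 had 97 counts in replicate 2 and 56 in replicate 1. Gm26315 had 45 counts in replicate 2 and 31 in replicate 1, and Gm24146 had 32 in replicate 2 and 34 in replicate 1. Both are 84.0% identical to Rn7sk, the next closest member, Gm25265, being at 64.3%. Gm26415 had 44 counts in replicate 2 and 22 in replicate 1, and Gm23553 had 26 in replicate 2 and 32 in replicate 1. The intervals of the log2 ratio, for counting error only, included 0 for Gm26315 (-0.21 to 1.19), Gm24146 (-0.88 to 0.60) and Gm23553 (-1.16 to 0.44). A difference was thus not detectable in these gene-level counts at this depth. The index-based table, described below, gave these 3 genes log2 ratios of -1.46, -3.36 and -0.74, so the values also depend on how reads were assigned.

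U2 was the most read U snRNA. Of 11 U2-like genes of 191 bases, 4 are identical to one another (Rnu2-10, Gm24950, Gm23971 and Gm23849), each listed with 5551 counts in replicate 2 and 2736 in replicate 1. Gm23444 and Gm23472 differ from Rnu2-10 only by G109C (the base of Rnu2-10, its position from the 5′ end, the base of the copy), and each had 6773 counts in replicate 2 and 2465 in replicate 1. Gm25939 carries T69C, C78T and G109C, and had 6520 counts in replicate 2 and 4300 in replicate 1. The deposited spread of its estimate (posterior SD) was 0.02% of the count in each library. A small spread need not mean a sure division of reads, since for Rmrp it was 0.31% in replicate 2 and 0.15% in replicate 1. Gm24497, with G109C and C186A, had 377 counts in replicate 2 and 4027 in replicate 1, the only member 2-fold or more lower in replicate 2. The posterior SD of that count was 316% in replicate 2 and 28.7% in replicate 1. The index-based table, a second deposited estimate, gave Gm24497 5625 counts in replicate 2 and 5338 in replicate 1. Summed over these 11 and 2 further near-identical genes that did not pass, there were 44730 counts in replicate 2 and 24884 in replicate 1, a log2 ratio of 0.79, within the range of the single copies from -3.47 to 2.65.

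U1 genes formed the largest group, 16 genes with 6 different sequences of 164 to 166 bases, 7 on chromosome 12, 7 on chromosome 3 and 2 on chromosome 11. Rnu1a1 and its 6 identical copies were each listed with 1989 counts in replicate 2 and 766 in replicate 1. Gm22513, which differs from Rnu1a1 by T60C, had the most, 6242 counts in replicate 2 and 2469 in replicate 1, with a posterior SD of 0.01% in both. Gm24305, which carries A26G, had 398 counts in replicate 2 and 110 in replicate 1. The b-type genes Rnu1b1 and Rnu1b2, identical to each other, each had 41 counts in replicate 2 and 16 in replicate 1, and Rnu1b6 had 87 in replicate 2 and 21 in replicate 1. With 9 further near-identical genes that did not pass, they had 23979 counts in replicate 2 and 9414 in replicate 1, 2.46-fold higher in replicate 2, and every U1 member had a log2 ratio between 1.11 and 1.95. Counts of single U1 and U2 genes are uncertain, since copies share reads, and the sums do not depend on how those reads were divided within a group.

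Of the snRNAs of the minor spliceosome, Rnu12, which pairs with the branch site of rare introns, passed. It had 123 counts in replicate 2 and 11 in replicate 1, a log2 ratio of 3.37 (2.54 to 4.47). In the index-based table it had 756 counts in replicate 2 and 286 in replicate 1, a log2 ratio of 1.72. Gm24265 and Gm24407 are 141-base snRNA genes whose names give no U class, and they are not placed in the minor spliceosome here. They differ by G88A and C99A (the base of Gm24265 first). They had 749 and 274 counts in replicate 2, against 109 and 42 in replicate 1. Rnu11 (134 bases), like Rnu12 of the minor spliceosome, was at 0 gene-level counts in both libraries. This allows up to 0.132 CPM (counts scaled to 1000000 reads) in replicate 2 and 0.146 in replicate 1. The effective length of Rnu11 was only 3.23 bases in replicate 2 and 1.31 in replicate 1, so these limits say little about its level. Rnu7 (62 bases), Rnu6 (107 bases) and Rnu5g (116 bases) were also listed at 0, but their effective length was 0 in both libraries, so that these entries set no limit on their level. In the index-based table Rnu5g had 74 counts in replicate 2 and 80 in replicate 1.

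**Figure D2:**
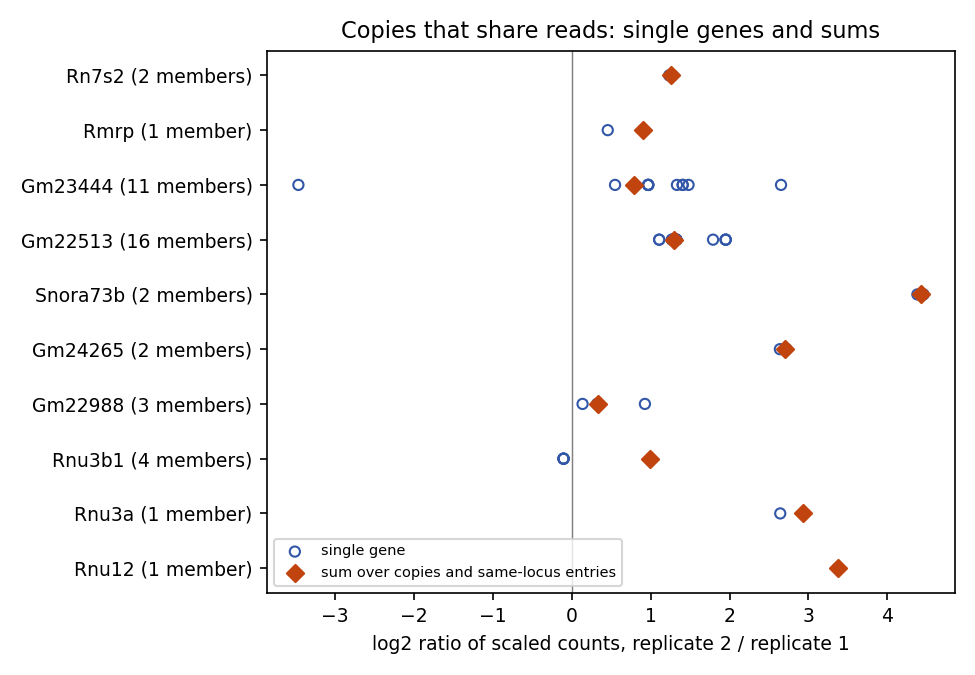
Log2 ratio of scaled counts, replicate 2 over replicate 1 (horizontal axis), for the 10 sets of near-identical copies or same-locus entries, named by the member with most reads in replicate 2. Open circles are single genes and diamonds the sums; Gm23444 stands for U2, whose copies run from -3.47 to 2.65 around a sum of 0.79, and Rnu3b1 for U3b, whose circles at -0.11 lie below the sum at 0.99.

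scaRNAs were led by Gm22009, a 343-base RNA in an intron of Kpna4, with 31665 counts (5901 TPM) in replicate 2 and 37740 counts (8879 TPM) in replicate 1. Its log2 ratio was -0.31 (-0.33 to -0.28). Scarna2 (414 bases), which has no host gene, had 5890 counts in replicate 2 and 4093 in replicate 1. Gm25395 and Scarna6, the neighbours in Atg16l1, had 1356 and 531 counts in replicate 2, against 739 and 293 in replicate 1. Their log2 ratios were 0.82 and 0.80, and Atg16l1 itself had 1201 counts in replicate 2 and 836 in replicate 1, a log2 ratio of 0.47. Scarna13, in an intron of Snhg10, had 1196 counts in replicate 2 and 641 in replicate 1, whereas Snhg10 was listed with 1 count in replicate 2 and 0 in replicate 1. Gm26083, in Snhg20, was the shortest scaRNA (193 bases) and the one past 2-fold, with 134 counts in replicate 2 and 35 in replicate 1.

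The snoRNA genes ranged from 24 to 4902 counts in replicate 2 and from 13 to 3130 in replicate 1. The highest entry typed as snoRNA was Scarna10 (325 bases, in Ncapd2), a scaRNA by name, with 4902 counts in replicate 2 and 3130 in replicate 1. Gm23547 in Phb2 and Gm23262 in Eif4g2 had 1216 and 1330 counts in replicate 2, against 501 and 400 in replicate 1. Gm22988, in Eif4a1, had 899 counts in replicate 2 and 694 in replicate 1, a log2 ratio of 0.32, one of the smallest.

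Snora73a and Snora73b (U17, also called E1), H/ACA snoRNAs that act in the cleavage of ribosomal RNA precursors, stood out by their ratio. Snora73b had 1044 counts in replicate 2 and 45 in replicate 1, a log2 ratio of 4.46 (4.05 to 4.95). Snora73a had 908 counts in replicate 2 and 42 in replicate 1, a log2 ratio of 4.38 (3.94 to 4.86). Both are 205 bases long and 96.6% identical, Snora73b carrying G3A, G54A, A111G, T164C, G203A, T204A and T205A relative to Snora73a. Other genes of nearly the same length had smaller ratios: Gm26448 (203 bases, in Rpsa) 2.78, the U2 sum (191 bases) 0.79 and Gm26083 (193 bases) 1.88. In the index-based table Snora73b had 1121 counts in replicate 2 and 116 in replicate 1, and the log2 ratio was 3.59.

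Snord22, a box C/D snoRNA in Snhg1 and the shortest member at 126 bases, had the highest ratio of all: 689 counts in replicate 2 and 27 in replicate 1, a log2 ratio of 4.60 (4.07 to 5.23). Gm25776, in Gtf2a1, had 482 counts in replicate 2 and 37 in replicate 1, a log2 ratio of 3.63. Gm26447 (129 bases, in Eif4a2) had 922 counts in replicate 2 and 111 in replicate 1, 7.98-fold higher in replicate 2 when scaled. In each of these the libraries differed by far more than counting error, but no replicate of either library can show the spread between like preparations. By 3′ end, 8 of the 13 snoRNA genes with CTGA letters, 6 of the 9 with ACA letters and 4 of the 4 with neither were 2-fold or more higher in replicate 2.

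U3, the box C/D snoRNA needed for 18S rRNA maturation, shows how entries at one locus divide reads. Rnu3b1, Rnu3b2, Rnu3b3 and Rnu3b4 are identical and each had 108 counts in replicate 2 and 113 in replicate 1, a log2 ratio of -0.11. Each has a 1 base longer entry of the same name and place, with 124 counts in replicate 2 and 0 in replicate 1. With both entries, each locus had 232.5 counts in replicate 2 and 112.5 in replicate 1, a log2 ratio of 0.99. Rnu3a had 229 counts in replicate 2 and 35 in replicate 1, and its second entry 51.5 in replicate 2 and 0 in replicate 1. The index-based table assigned 0 reads to these 5 members in both libraries. It gave each longer Rnu3b entry 415 counts in replicate 2 and 263 in replicate 1, and the longer Rnu3a entry 523 in replicate 2 and 239 in replicate 1.

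Among the 76 genes, 42 had at least 1 annotated copy within 5% edit distance and 26 had an identical one. The median posterior SD over the 42 was 31.5% of the count in replicate 2 and 43.9% in replicate 1, whereas over the other 34 it was 0 in both. Merged by likeness and locus, the 76 genes made 43 sequence groups, of which 22 were 2-fold or more higher and 0 were 2-fold or more lower in replicate 2; their median log2 ratio was 1.00.

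Which RNAs could be counted went with length. No gene shorter than 126 bases passed, out of 3933, and 23 of those had any gene-level count. Passing genes were 14 of 1048 from 126 to 150 bases (1.34%), 31 of 303 from 151 to 200 (10.2%), 10 of 95 from 201 to 250 (10.5%) and 21 of 348 above (6.03%). The labels give a library size range of 250 to 400 without a unit. The mean fragment length implied by the effective length of the phiX174 control was 190 bases in replicate 2 and 219 bases in replicate 1. Effective length, the number of start positions left for fragments, was 0 for RNAs up to 120 bases in replicate 2 and up to 130 bases in replicate 1.

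**Figure D3:**
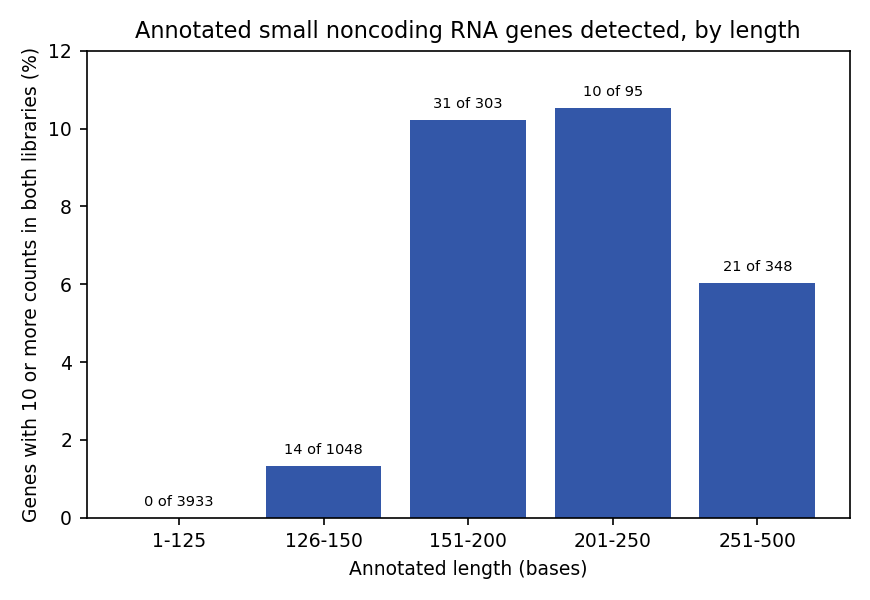
Percent of annotated small noncoding RNA genes with 10 or more expected counts in both libraries (vertical axis) by annotated length in bases (horizontal axis), with numbers above the bars. The bars for 151 to 200 and 201 to 250 bases are highest at 10.2% and 10.5%, and the bar for the shortest RNAs is at 0.

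The ratio between the libraries went with length too. The median log2 ratio was 2.71 for members of 126 to 150 bases, 1.32 for 151 to 200, 1.19 for 201 to 250 and 0.73 for longer ones. Over the 76 genes the Spearman correlation of length and log2 ratio was -0.62. Over the 33 without near-identical copies or same-locus entries, some of which overlap a host exon, it was -0.88. Both are descriptions over genes of the same libraries. Genes of other types showed a like order: the 43 with no transcript over 350 bases had a median log2 ratio of 0.58, and 14 of them were 2-fold or more higher. The 10216 with a transcript over 2000 bases had a median of -0.04, and 190 of them were 2-fold or more higher. Fragment length moved with this result, at 190 bases in replicate 2 and 219 in replicate 1, and its part in the result was not tested.

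TPM takes the effective length into account. A 191-base RNA had an effective length of 28.2 bases in replicate 2 and 15.1 in replicate 1, and a 300-base RNA 117 in replicate 2 and 88.7 in replicate 1. By TPM, 15 of 74 members were 2-fold or more higher and 2 were 2-fold or more lower in replicate 2; the median log2 ratio was 0.32. Over all genes 4.14% were 2-fold or more higher by TPM and 2.70% lower. Snord22 and Gm26447 could not be compared, since TPM was listed at 0 in replicate 1, where their effective length was 0, and at 11559 and 12045 in replicate 2. The members with the largest TPM ratios were Snora73b at 3.67 and Snora73a at 3.59 on the log2 scale, with 816 and 710 TPM in replicate 2, against 64.2 and 58.9 TPM in replicate 1. Gm25776 followed at 2.42 and Rnu12 at 2.26.

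**Figure D4:**
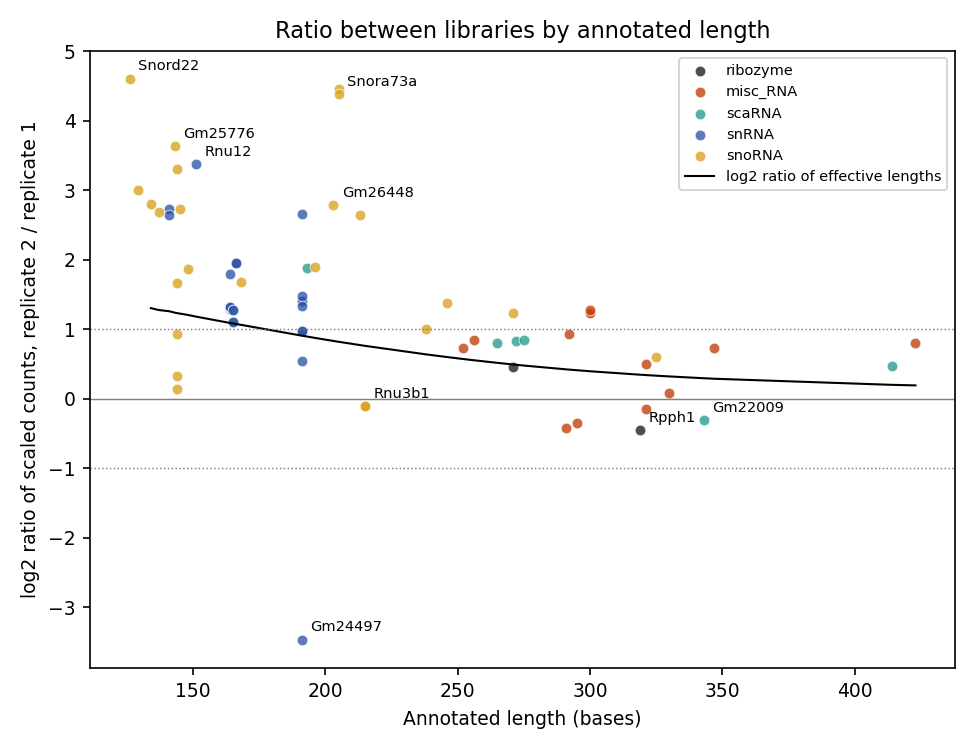
Log2 ratio of scaled counts, replicate 2 over replicate 1 (vertical axis), against annotated length in bases (horizontal axis) for the 76 genes, coloured by type, with the log2 ratio of effective lengths as a black line and dotted lines at 2-fold. Most ratios over 2 belong to RNAs of 126 to 150 bases, and Snora73a at 4.38 and Snord22 at 4.60 are the highest of those named.

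In the index-based table, 71 of the 76 genes again had 10 or more counts in both libraries, of 568 small noncoding RNA genes that did. Of the 71, 38 were 2-fold or more higher and 3 were 2-fold or more lower in replicate 2, against 3.64% and 4.21% over all genes of that table. The 38 were also 2-fold or more higher in the gene-level table. The 3 lower ones were Gm24146, Gm26315 and Rn7s6. Gm24146 had 22 index-based counts in replicate 2 and 286 in replicate 1, and Gm26315 had 109 in replicate 2 and 375 in replicate 1. Rn7s6 had 72 in replicate 2 and 185 in replicate 1. These are the members most like Rn7sk or 7SL without being it, and the gene-level table gave none of them a 2-fold difference. Gm26315 and Gm24497 had opposite signs in the tables.

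Near the count threshold, Gm25219 had 11 counts in replicate 2 and 10 in replicate 1, and Gm27928 had 19 in replicate 2 and 10 in replicate 1. Rnu12 and Gm23833 (21 counts in replicate 2 and 12 in replicate 1) were the next inside it. Just outside lay Vis1, with 11 counts in replicate 2 and 9 in replicate 1, and Gm26035, with 9.76 in replicate 2 and 9 in replicate 1. Gm26407 had 8 in replicate 2 and 9 in replicate 1, and Snora23 had 17 in replicate 2 and 7 in replicate 1. The vault RNA gene Vaultrc5 had 3 counts in replicate 2 and 1 in replicate 1, and the Y RNA genes Rny1 and Rny3 were listed at 0 in both, with an effective length of 0. In the index-based table Rny3 had 40 counts in replicate 2 and 20 in replicate 1, and Rny1 had 10 in replicate 2 and 8 in replicate 1.

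Of the 26 snoRNA and 6 scaRNA genes, 25 and 5 lie inside another gene on the same strand. For 29 of these the host had 10 or more counts in both libraries (22 host genes). Some of the 29 overlap an annotated exon of the host, among them Snord22 in Snhg1, Gm26447 in Eif4a2 and Gm23262 in Eif4g2. Reads there may be divided between host and small RNA, so the values of such a pair are not independent. The small RNA had a higher log2 ratio than its host in 24 of 29 pairs. The other 5 were Gm22009 in Kpna4 and the 4 identical Rnu3b genes in Tex14, at -0.11 each. Tex14 had 20 counts in replicate 2 and 11 in replicate 1, a log2 ratio of 0.78. With its longer entry each Rnu3b locus was at 0.99, so the order of these 4 pairs depends on how shared reads were divided. Host ratios lay between -0.48 and 0.78, none past 2-fold, while those of the small RNAs lay between -0.31 and 4.60. Snhg1, host of Snord22, had 357 counts in replicate 2 and 374 in replicate 1, a log2 ratio of -0.12. Rcc1, which encloses Snora73a and Snora73b, had 90 counts in replicate 2 and 91 in replicate 1, and Snhg3 had 46 in replicate 2 and 47 in replicate 1. Eif4a1 had 5753 counts in replicate 2 and 5613 in replicate 1, around Gm22988 at 0.32 and Gm25835 at 3.31. The hosts are long transcripts and the small RNAs short, so length moves with the comparison, and its part in it was not tested.

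**Figure D5:**
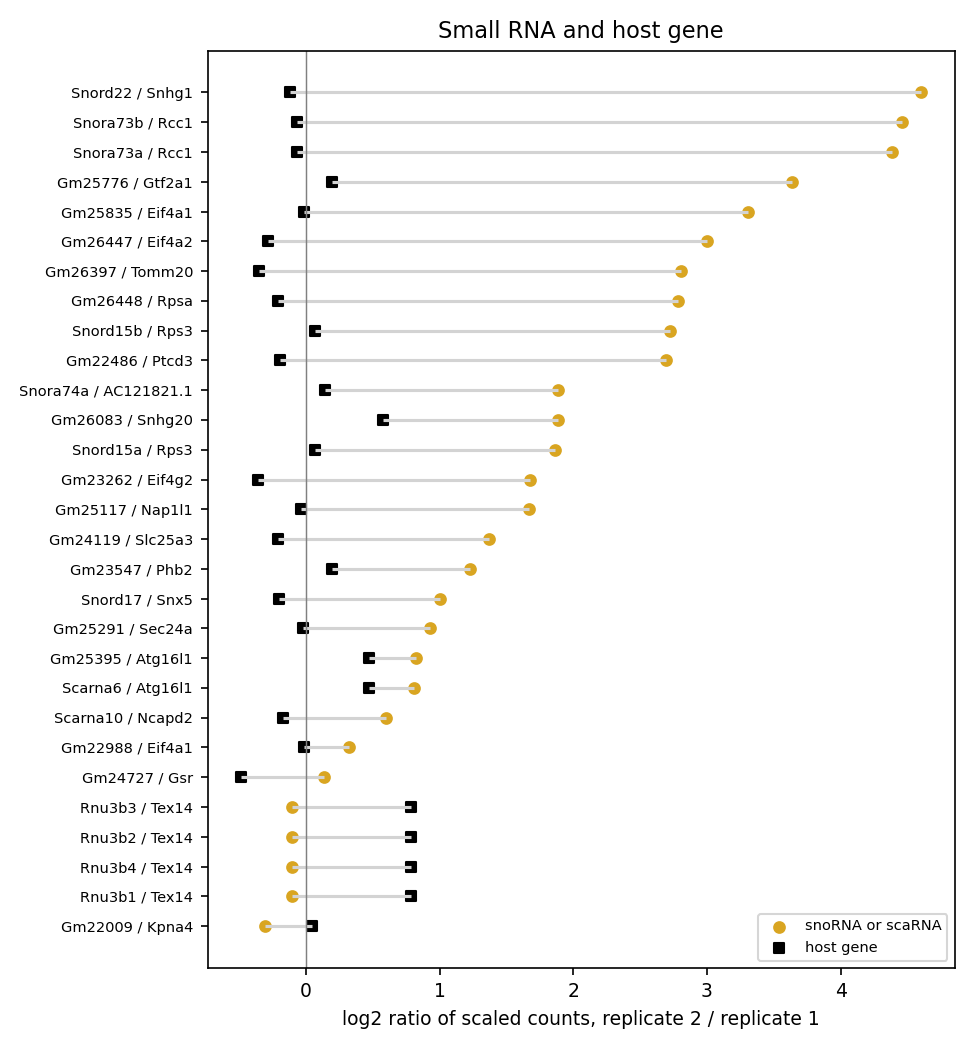
Log2 ratio of scaled counts, replicate 2 over replicate 1 (horizontal axis), of 29 snoRNA or scaRNA genes (circles) and of the host gene each lies in (squares), one pair a row, ordered by the small RNA. The squares lie between -0.48 and 0.78, and the circles reach 4.60.

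Protein genes of the complexes these RNAs form were compared as well. Of 93 entries in 14 lists, 89 genes reached 10 counts in each library, with a median log2 ratio of -0.03. Of the 89, 1 was 2-fold or more higher and 1 was 2-fold or more lower in replicate 2. Over all genes 3.72% were 2-fold or more higher and 1.54% lower. The higher one was Pop5, a subunit shared by RNase P and RNase MRP, with 71 counts in replicate 2 and 28 in replicate 1. The lower one was Lsm3, of the U6 Sm-like ring, with 31 counts (1.86 TPM) in replicate 2 and 61 counts (4.01 TPM) in replicate 1. Its log2 ratio was -1.02. In the index-based table the log2 ratio was 0.97 for Pop5 and -0.09 for Lsm3, neither past 2-fold. Among the 9 RNase P and MRP proteins measured the median log2 ratio was 0.16, and Rpp21 led with 6.20 TPM in replicate 2 and 4.40 in replicate 1. Among the 6 signal recognition particle proteins it was -0.07, Srp54a having 18.5 TPM in replicate 2 and 26.5 in replicate 1. Among the 7 Sm core proteins it was 0.30, among 4 box C/D proteins -0.25 and among 6 box H/ACA proteins -0.36. Sf3b1 of the U2 particle had 66.9 TPM in replicate 2 and 92.5 in replicate 1, and Snrnp70 of the U1 particle 40.5 in replicate 2 and 37.4 in replicate 1. Tep1, of the vault and telomerase particles, had 44.9 TPM in replicate 2 and 43.5 in replicate 1.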

How the data were processed

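Ribosomal-RNA-depleted nuclear RNA of 2 libraries of 1 group was used. The authors deposited gene-level expected counts (estimated read counts, reads shared by transcripts being divided), TPM, effective lengths and the posterior SD of each count, and an index-based transcript table with estimated counts, types and TPM. Per the file headers, the assembly is mm10 and the annotation GENCODE M21; aligner, quantifier, their versions and the use of strand are named in none of the sources, so antisense, overlapping and copied genes are uncertain. Entries that name no gene (0.0810% of gene-level counts in replicate 2 and 0.144% in replicate 1) were left out.

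Members and lists were chosen with earlier results of these data known. Counts were rounded for the library sizes alone, scaled by TMM over genes reaching 10 counts in each (edgeR 4.0.16, R 4.3.3). A log2 ratio is that of counts plus 0.5, replicate 2 over replicate 1; it was set against a threshold of 1. Intervals are exact (Clopper-Pearson) at 95%, and they and limits from a count of 0 (3 counts) cover counting error only, with reads not being independent molecules. They do not hold the error of dividing shared reads. The ratio and interval were tested on simulated data. Near-identical copies had an edit distance of at most 5% of length; same-locus entries overlapped reciprocally by 90%. An intronic gene overlaps no exon of any transcript of its host. The index-based counts were summed per gene and scaled by their own TMM sizes. Genes were named by type: the 8 with most counts, the 3 highest and 3 lowest ratios at 50 or more counts, small classes whole, 4 genes on each side of the count threshold and the U RNAs; further members were named after their values were seen. Sequences are those of GENCODE M21. Alternatives covered scaling (DESeq2 1.42.0), tables, TPM, count minimums, copies, pseudocount and threshold.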

Additional observations from a re-analysis of the deposited data

Results flagged for a closer look

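In the index-based table, 410 small noncoding RNA genes had 10 or more estimated counts in both libraries although the gene-level table listed 0 counts for them in both. They are a signal in a table that the choice of genes did not use. Of these, 263 are typed as miRNA, 59 as snRNA, 54 as snoRNA, 27 as misc_RNA and 5 as scaRNA, and 320 are shorter than 126 bases. The median was 28.0 index-based counts in replicate 2 and 42.1 in replicate 1. The highest were Gm23935, Gm24270 and Gm24245, miRNA entries of 57 bases on chromosomes 16, 9 and 4, each listed with 511687 counts in replicate 2 and 115397 in replicate 1. Equal counts can arise where the same reads are divided among copies, which was not tested, so these may not be 3 separate levels. At 57 bases the entries are shorter than the mean fragment length, 190 bases in replicate 2 and 219 in replicate 1.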

How the results depend on the processing

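Library totals, DESeq2 size factors and a pseudocount of 5 each gave 44 members higher and 1 lower. Their median log2 ratios were 1.18, 1.27 and 1.25. A threshold of 1.5-fold gave 59 higher and 1 lower. Shares over all genes are not given for that threshold or for the other count minimums, so those counts have no background beside them. The index-based table gave 3 lower genes and a median of 1.11 on the log2 scale. Deposited TPM gave 15 higher, 2 lower and a median of 0.32, and, set relative to the median of all genes (chosen after seeing the data), 14, 2 and 0.30. A count minimum of 100 gave 22 higher and a median of 1.11 over 41 genes, and a minimum of 1 gave 71 higher, 5 lower and a median of 1.11 over 134 genes. Leaving out copies gave 16 higher, 0 lower and a median of 0.93 over 33 genes. Also chosen after seeing the data, summed copies gave 22 higher, 0 lower and 1.00, and members over 250 bases 3 higher, 0 lower and 0.73 over 21. The number of genes that enter differs among these settings, and the cause of the differences was not tested.

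The members' share of reads was 4.70%, from 4.21% to 5.19% without one or the other library, 3.71% in the index-based table, 40.4% by TPM and 11.2% with Rn7sk. Shares of member reads without one library ran from 24.9% to 45.1% for misc_RNA, 44.2% to 65.5% for ribozymes, 3.45% to 5.02% for scaRNA, 3.97% to 5.91% for snRNA and 0.694% to 1.28% for snoRNA. With Rn7sk they were 73.0%, 22.7%, 1.75%, 2.11% and 0.426%. By TPM, scaRNA held 2.27%, snRNA 24.9% and snoRNA 6.98%. The median host log2 ratio was -0.02, and 0.00079 in the index-based table. RNP protein genes past 2-fold were 2, against 0 in the index-based table. No library could be left out of a ratio, which needs both, and with 1 group no paired analysis was possible because there are no groups to pair. Depth limits the 35 members with under 100 counts in a library.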
